A study of Rattus norvegicus with 13 samples.

Results

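Nitric oxide synthases and their regulators were followed in left ventricle muscle of male rats aged 45 weeks. The genes were the 3 synthases (Nos1, Nos2 and Nos3), the adaptors Nos1ap and Nostrin, the cofactor genes Gch1 and Gchfr, and the enzyme genes Ddah1, Ddah2 and Arg1. They were taken by gene name from the spots of the array that are not controls, which gave 10 genes with 12 probes among 30367 probes. RNA of wild-type (WT) rats and of rats labelled as overexpressing ADBR3, the β3-adrenergic receptor (Adrb3 in rat), was hybridized to 13 single-dye arrays. The 6 WT and 7 overexpressing arrays came from 4 and 5 rats, and RNA of rat 1 of each group was labeled in 2 separate reactions, named hearts 1 and 2. WT heart 5 and overexpressing heart 4 are labelled as repeat hybridizations of rats that the labels do not tie to any other array, so they are shown as arrays and enter no test. Strain, the sequence introduced and the promoter that drives it are not given in the sources used here, and both groups share tissue, sex and age. The probe for rat Adrb3 cleared background on 1 of the 7 overexpressing arrays and on 0 of the 6 from WT rats. It need not read the introduced sequence and does not check the labels.

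Nitric oxide synthases make nitric oxide from L-arginine, with tetrahydrobiopterin as a cofactor. The gas activates soluble guanylyl cyclase, and the cyclic GMP formed acts on vessel tone, contraction and relaxation. In the heart Nos3 is best known from endothelium and is also present in cardiomyocytes, Nos1 is associated with the sarcoplasmic reticulum, and Nos2 is induced by inflammatory signals. The β3 receptor is known for coupling to nitric oxide synthases in cardiac muscle, and the comparison asks whether their transcripts differ when it is overexpressed.

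To obtain a level, a spot's processed signal was put on the log2 scale and set against the 75th percentile of its array, so that 0 stands for a spot as bright as that percentile. A probe's brightness depends on its sequence too, so a higher level of one probe than of another is not read as a difference between genes. Brightness served to pick the probe that stands for a gene and the marker named for a list. Levels are listed for WT rats 1, 3, 4 and 6 and for overexpressing rats 1, 3, 5, 6 and 7, in that order, and each difference is overexpressing minus WT in log2 units. Differences within slide 1 compare 2 WT rats with overexpressing rat 1, and those within slide 3 compare WT rat 4 with overexpressing rat 7. Those within slide 4 set the replicate hybridization WT heart 5 against overexpressing hearts 4, 5 and 6. Differences within scan day 1 compare WT rat 4 with overexpressing rats 1, 3 and 7, so they share rats with slide 3. Those within scan day 2 compare WT rats 1, 3 and 6 with overexpressing rats 1, 5 and 6. Overexpressing rat 1 enters day 1 with its second labeling, and slide 1 and day 2 with its first. WT rat 1 enters slide 1 and day 2 as the mean of both labelings. None of these differences has an error of its own. All probes are 60 bases long, and the positions given by the files refer to rat build rn4. No member probe shared a run of more than 9 bases with another. The sequences shown are the 2 Nos1 probes, which stayed at background, the Nos3 probe, which was bright in every heart, the probes of Nos1ap, Nostrin and Gch1, which lie across a splice junction, the dimmer of the 2 Ddah1 probes, and a second feature described as inducible synthase.
Nos1 probe A_44_P473047, chr12:39810923-39810982, minus strand: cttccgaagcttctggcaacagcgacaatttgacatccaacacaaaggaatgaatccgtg
Nos1 probe A_64_P105620, chr12:39815023-39815082, minus strand: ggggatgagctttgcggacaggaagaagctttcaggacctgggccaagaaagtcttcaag
Nos3 probe A_44_P198620, chr4:6159286-6159345, minus strand: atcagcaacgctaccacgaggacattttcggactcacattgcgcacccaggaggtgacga
Nos1ap probe A_42_P530662, chr13:86181181-86192436, minus strand: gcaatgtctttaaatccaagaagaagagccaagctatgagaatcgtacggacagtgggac
Nostrin probe A_44_P166206, chr3:51339285-51344813, plus strand: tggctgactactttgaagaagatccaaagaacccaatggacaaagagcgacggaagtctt
Gch1 probe A_64_P138216, chr15:23024229-23025738, minus strand: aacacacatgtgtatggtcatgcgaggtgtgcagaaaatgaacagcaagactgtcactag
Ddah1 probe A_64_P088814, chr2:244032795-244032854, plus strand: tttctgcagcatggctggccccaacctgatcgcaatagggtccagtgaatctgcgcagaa
Inducible synthase feature A_64_P038249, chr10:65120732-65120791, plus strand: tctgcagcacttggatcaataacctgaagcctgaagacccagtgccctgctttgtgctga
The probes of Nos1ap, Nostrin and Gch1 match stretches of 11256, 5529 and 1510 genomic bases, longer than the probe itself, so an intron lies within each match. The GC content of the member probes ran from 43.3% (Arg1) to 55.0% (Nos3 and the dimmer Ddah1 probe), with a median of 45.0% over all probes of the array.

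Of the 10 genes, 8 were measured well enough to be tested, and none passed the threshold (0 with limma at a Benjamini-Hochberg adjusted p of 0.05 over 15367 genes, against 1 gene, or 0.00651%, of all those tested, and 0.00569% of 17587 probes). Arg1 and Nostrin were lower and Gchfr was higher in overexpressing rats at an unadjusted p under 0.05, which makes 3 of 8 members, where 9.44% of all genes had such a p. Of the array's genes 3.15% had it on the higher side (1 member, Gchfr) and 6.29% on the lower side (2 members). That split, 484 higher and 967 lower genes, was 951 and 568 with median scaling, which moved the median difference of all genes from -0.01 to 0.03. The members' smallest adjusted p was 0.464. In direction 4 were higher and 4 lower, with a median difference of -0.04, against -0.01 over all genes. In none of the 8 did the 4 WT and 5 overexpressing rats lie fully apart (0, against 3.52% of all genes).

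**Figure D1:**
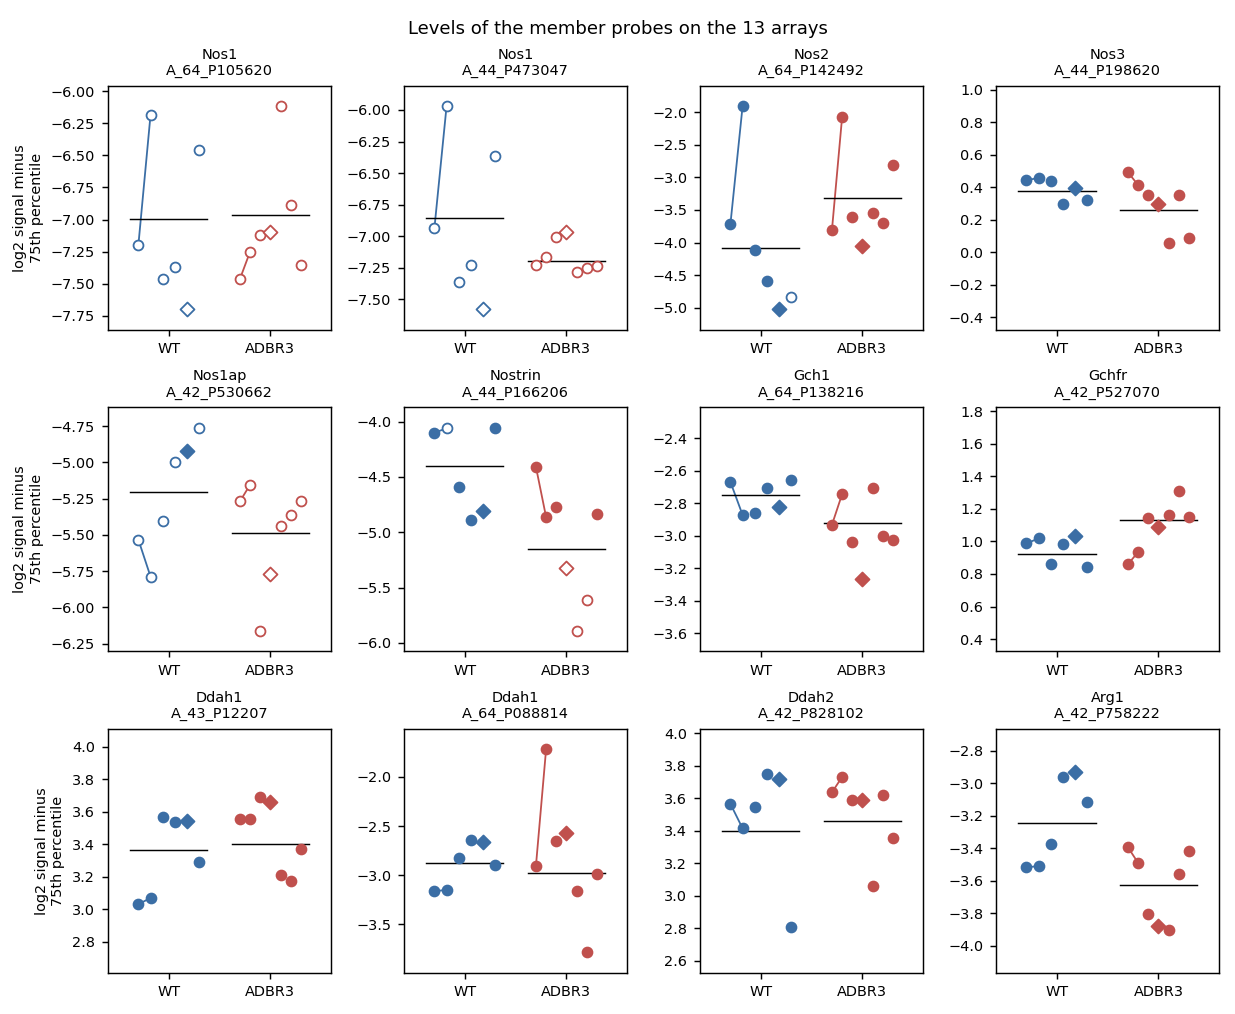
Level of each member probe on the 13 arrays (log2 units relative to the array's 75th percentile), for WT (blue) and overexpressing (ADBR3, red) hearts in order of heart number. Filled symbols were well above background, lines join 2 labelings of 1 rat, diamonds are replicate hybridizations outside the tests and black lines are means over 4 and 5 rats. The Nos1 probes are open on all arrays, and the joined Nos2 labelings lie 1.81 and 1.73 apart, more than the group means (0.76).

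Nos1, the neuronal synthase, was not well above background on any of the 13 arrays with either probe (0 of 6 WT and 0 of 7 overexpressing). The probe with 10 spots per array measured -6.45, -7.36, -7.23 and -6.37 in WT rats. The overexpressing rats were at -7.20, -7.00, -7.28, -7.25 and -7.24. These values give an upper bound on the signal and no order between rats, so no fold is given. Over the 13 arrays its readings ran from -7.58 to -5.97.

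Nos2, the inducible synthase, was dim and cleared background on all arrays but WT heart 6 (5 of 6 WT, 7 of 7 overexpressing). Its level was -2.81, -4.11, -4.59 and -4.83 in WT rats. Overexpressing rats gave -2.94, -3.61, -3.55, -3.71 and -2.81. WT rat 1 was as high as the highest overexpressing rat, while the other 3 WT rats lay below all 5. The difference was 0.76 ± 0.395 (SE; limma, unadjusted p = 0.0849, adjusted p = 0.563), with a 95% interval of -0.13 to 1.66. With each rat left out in turn it ran from 0.51 without WT rat 6 (limma, unadjusted p = 0.231) to 1.19 without WT rat 1 (unadjusted p = 0.00155, adjusted p = 0.262). The unadjusted p was under 0.05 in 1 of these 9 fits. The difference was 0.33 with normexp background correction and 0.49 with the authors' deposited values.

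The rat 1 values of Nos2 rest on labelings that did not repeat. Both labelings of WT rat 1 came from the same slide and measured -3.72 and -1.90. Those of overexpressing rat 1 came from different slides and measured -3.80 and -2.07. On the second labelings the share of spots that cleared background was 55.2% in WT rat 1 and 63.3% in overexpressing rat 1. The WT share was the lowest of all arrays. The gaps of 1.81 and 1.73 exceeded the SD over the 9 rats, 0.74. The median gap over 17587 probes was 0.0834 and 0.0875 in these rats, and 0.273% and 0.205% of probes had a gap at least as large as that of Nos2. Among the 2235 probes within 0.5 log2 units of its mean level the shares were 0.626% and 0.671%. In 13 of the 17587 probes the second labeling read at least 1.5 higher than the first in both rats, and in 1 it read as much lower, a threshold set after these values were seen. With the first labeling alone of each rat, the Nos2 difference was 0.82 (limma, unadjusted p = 0.0124, adjusted p = 0.456). Within slides 1, 3 and 4 it was 0.02, 1.78 and 1.26, and within scan days 1 and 2 it was 1.76 and 0.23. Day 1 holds the higher labeling of overexpressing rat 1. Slide 1 and day 2 hold its lower labeling, set against WT rat 1 averaged over both labelings. The replicate hybridizations, outside the test, read -5.03 in WT heart 5 and -4.05 in overexpressing heart 4.

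A second feature, ENSRNOT00000073305, is described in the files as inducible nitric oxide synthase and lies 48.3 kb further along the same strand. It is outside the gene name rule and was looked up by its description after the Nos2 values were seen. It was well above background on all 13 arrays, and the labelings of rat 1 differed by 0.386 and 0.0333. WT rats averaged -4.00 ± 0.276 (SD, n = 4) and overexpressing rats -4.24 ± 0.142 (SD, n = 5), a difference of -0.24 ± 0.129 (SE; limma, unadjusted p = 0.0961, adjusted p = 0.579). Without WT rat 1 it was -0.11, with normexp background correction -0.13 and with the authors' deposited values -0.0954. The differences of the Nos2 probe and of this feature were thus opposite in sign, neither passed the threshold, and the gap between them was not tested. The files do not settle whether they read the same transcript or a near-identical copy.

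**Figure D2:**
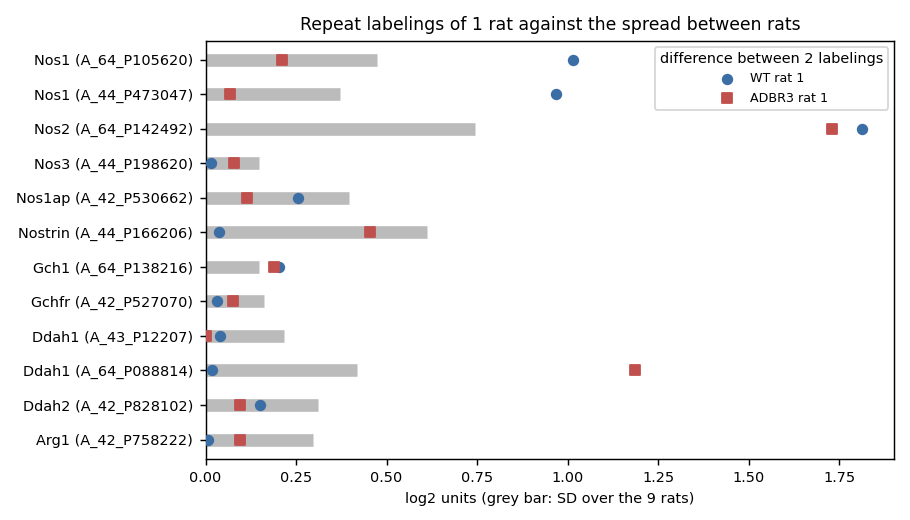
Difference between the 2 labelings of WT rat 1 (blue circles) and of overexpressing rat 1 (ADBR3, red squares) for each member probe, in log2 units, beside the SD over the 9 rats (grey bars). For Nos2 both gaps, 1.81 and 1.73, lie beyond the bar that ends at 0.74, and for Nos3 both lie inside it.

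Nos3, the endothelial synthase, was bright and evenly measured, with all 10 spots well above background on all 13 arrays. The SD between its spots on 1 array was 0.0280 to 0.0780. Its level was 0.45, 0.44, 0.30 and 0.32 in WT rats. The values of overexpressing rats were 0.45, 0.35, 0.06, 0.36 and 0.09. Overexpressing rats 5 and 7 lay below all WT rats, and rats 3 and 6 lay within the WT range. Overexpressing rat 1, at 0.453, lay just above the highest WT rat, at 0.451. Nos3 differed by -0.12 ± 0.0926 (SE; limma, adjusted p = 0.701), with a 95% interval of -0.33 to 0.09. The within-slide differences were 0.11, -0.21 and -0.16 on slides 1, 3 and 4, and the within-day ones -0.01 and -0.10. On rats 1, 3 and 6 of each group, which leaves out rats 5 and 7, it was -0.02, and without rat 5 or rat 7 alone -0.07.

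Markers of endothelium, the cell layer best known for Nos3, were measured beside it. Of 10 such markers 9 were lower and 1 higher in overexpressing rats, with a median difference of -0.06 and none past the threshold (limma gave 0, and 0 also without adjustment at p under 0.05). Of all 15367 genes tested 8193 were lower and 7174 higher. Median scaling moved the median difference of all genes from -0.01 to 0.03, so the signs of small differences depend on the scaling. The endothelial markers had a mean level per rat of 0.45 to 0.52 in WT and 0.30 to 0.50 in overexpressing rats. Their part in the Nos3 values was not tested. The marker with the highest signal, the receptor gene Kdr, was at 3.87 ± 0.146 (SD, n = 4) and 3.84 ± 0.0961 (SD, n = 5). In a piece of tissue, fewer cells of a type and less RNA per cell cannot be told apart.

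Nos1ap, an adaptor that binds the neuronal synthase, was well above background on 1 array, the replicate hybridization WT heart 5, where 9 of its 10 spots passed. On the other 12 arrays 0 to 4 spots did. Its level was -5.66, -5.40, -5.00 and -4.76 in WT rats and -5.21, -6.16, -5.44, -5.36 and -5.27 in overexpressing rats. The groups overlapped, no rat of either was well above background, and no fold is given.

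Nostrin, which draws the endothelial synthase away from the cell membrane, was dim and 0.74 lower in overexpressing rats (SE 0.298, limma, unadjusted p = 0.0335, adjusted p = 0.506). Its values lie near background, so no fold is given. It measured -4.08, -4.59, -4.89 and -4.05 in WT rats. The overexpressing rats were at -4.64, -4.78, -5.89, -5.61 and -4.84. Overexpressing rats 5 and 6 lay below every WT rat and were not well above background. Nor was WT rat 1, whose second labeling did not clear it. Overexpressing rats 1, 3 and 7 lay within the WT range. The probe cleared background on 5 of the 6 WT arrays and on 4 of the 7 others, where 1 of its 2 spots sufficed. Among the overexpressing arrays only heart 1 had both spots well above background. Exact permutation of the rats between groups gave a two-sided p of 0.0952, where the smallest this design allows is 0.00794.

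The Nostrin difference was smallest in size in 2 of the other settings and varied between batches. It was -0.26 with normexp background correction and -0.23 with the authors' deposited values, whose scaling is unknown. Within slides 1, 3 and 4 it was -0.34, 0.06 and -0.79, and within scan days 1 and 2 it was 0.07 and -1.06. With slide or scan day as a random block it was -0.63 and -0.65 (limma, unadjusted p of 0.0535 and 0.0505).

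Gch1, the rate-limiting enzyme of tetrahydrobiopterin synthesis, was well above background on all 13 arrays. Its level was -2.77, -2.86, -2.70 and -2.65 in WT rats and -2.84, -3.03, -2.71, -3.00 and -3.03 in overexpressing rats. Overexpressing rats 3, 6 and 7 lay below all WT rats. Gch1 differed by -0.17 ± 0.0814 (SE; limma, unadjusted p = 0.0604, adjusted p = 0.529). It was negative within slides 1, 3 and 4 (-0.22, -0.32 and -0.17) and within both scan days (-0.23 and -0.12). The gaps between labelings of rat 1, 0.203 and 0.188, were as large as this difference.

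Gchfr, the feedback protein that lets tetrahydrobiopterin inhibit Gch1, was 0.21 higher in overexpressing rats (1.16-fold; SE 0.0823, limma, unadjusted p = 0.0305, adjusted p = 0.497). It measured 1.00, 0.86, 0.99 and 0.84 in WT rats. Overexpressing rats gave 0.90, 1.14, 1.16, 1.31 and 1.15. All but overexpressing rat 1 lay above every WT rat, and the labelings of rat 1 differed by 0.0314 and 0.0755. Exact permutation gave a two-sided p of 0.0397, without correction for the number of genes. The difference was -0.06, 0.16 and 0.15 within slides 1, 3 and 4 and 0.09 and 0.21 within scan days 1 and 2, where slide 1 holds overexpressing rat 1 alone of its group.

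Gch1 and Gchfr thus differed in opposite directions, neither past the threshold. Other enzymes that make or recycle the cofactor were tested in 4 of 5 cases, 2 higher and 2 lower, with a median difference of 0.00073 and none past the threshold (limma gave 0, and 0 also without adjustment at p under 0.05). Spr, sepiapterin reductase, was 0.12 higher (adjusted p = 0.634), and Pcbd1, which recycles the cofactor, differed by -0.05 (adjusted p = 0.813). Spr was 0.0629 higher without overexpressing rat 3 and 0.0770 without WT rat 6, and Pcbd1 ran from -0.0891 to -0.0139 with 1 rat left out.

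**Figure D3:**
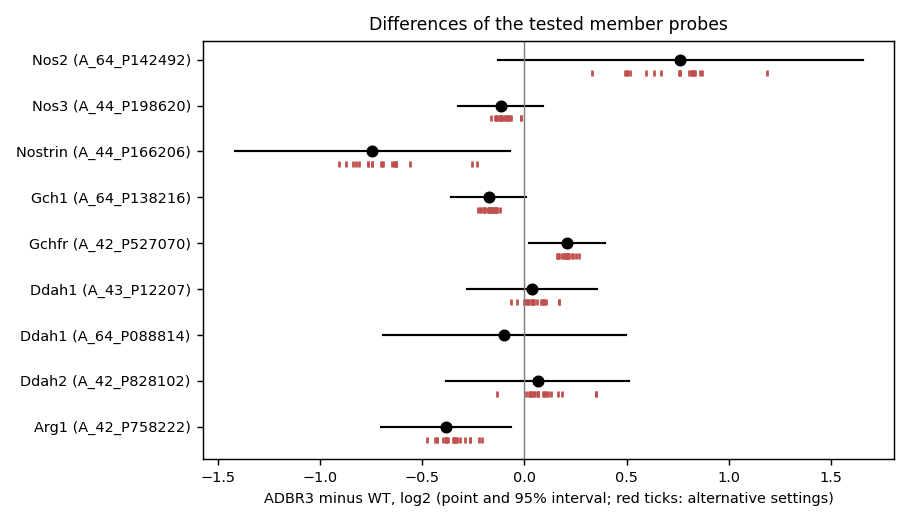
Difference of each tested member probe, overexpressing (ADBR3) minus WT, in log2 units (point) with its 95% interval from limma (line), 4 WT and 5 overexpressing rats. Red ticks are the differences under the alternative settings. The intervals of Nostrin, Gchfr and Arg1 leave out 0, and those of Nos2, Nos3, Gch1, Ddah1 and Ddah2 include it.

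Ddah1 and Ddah2 break down asymmetric dimethylarginine, a methylated arginine that inhibits all synthases. The brighter Ddah1 probe measured 3.05, 3.57, 3.54 and 3.29 in WT rats. The values of overexpressing rats were 3.55, 3.69, 3.21, 3.18 and 3.37. Rats of both groups spread over the same range, and the difference was 0.04 ± 0.140 (SE; limma, adjusted p = 0.950), with a 95% interval of -0.28 to 0.36. It turned negative when WT rat 1 (-0.07), overexpressing rat 1 (-0.00007) or overexpressing rat 3 (-0.03) was left out.

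The dimmer Ddah1 probe, from an earlier part of the gene, also gave no difference beyond the spread. WT rats averaged -2.88 ± 0.213 (SD, n = 4) and overexpressing rats -2.98 ± 0.556 (SD, n = 5), a difference of -0.10 (exact two-sided permutation p = 0.722; limma over all probes, adjusted p = 0.931). The labelings of WT rat 1 differed by 0.0178 and those of overexpressing rat 1 by 1.19, against 0.0388 and 0.00014 for the brighter probe. As for Nos2, the second labeling of overexpressing rat 1 was the high one.

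Ddah2 was bright and varied most between rats among the tested genes well above background in all 9 (SD 0.311). It measured 3.49, 3.54, 3.75 and 2.81 in WT rats and 3.68, 3.59, 3.06, 3.62 and 3.36 in overexpressing rats. WT rat 6 was the lowest and overexpressing rat 5 the next lowest, so the low values came from both groups. The difference was 0.06 ± 0.198 (SE; limma, adjusted p = 0.940), and without WT rat 6 it was -0.13 (adjusted p = 0.819). On rats 1, 3 and 6 of each group it was 0.35. The gene symbols that followed Ddah2 most closely over the 9 rats were Slfn5, Klf16 and Cyp51, with Pearson's r of 0.946, 0.935 and 0.926. Their SDs over the 9 rats were 0.182, 0.0964 and 0.0554, where the median gap between 2 labelings of a rat was 0.0834 and 0.0875 over all kept probes. These genes were picked as the 3 highest among genes with a symbol. They are given as a description over rats of both groups, with no test.

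Arg1, the arginase that competes with the synthases for arginine, was 0.38 lower in overexpressing rats (1.30-fold; SE 0.141, limma, unadjusted p = 0.023, adjusted p = 0.464), the smallest p of the members. It was dim and well above background on all 13 arrays. It measured -3.51, -3.37, -2.96 and -3.12 in WT rats. The overexpressing rats were at -3.44, -3.80, -3.90, -3.56 and -3.42. Overexpressing rats 3, 5 and 6 lay below every WT rat, and WT rat 1 lay below overexpressing rats 1 and 7. The replicate hybridizations read -2.93 in WT heart 5 and -3.88 in overexpressing heart 4.

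For Arg1 exact permutation gave a two-sided p of 0.0556. The difference was negative within slides 1, 3 and 4 (-0.08, -0.46 and -0.85) and within scan days 1 and 2 (-0.61 and -0.29). It was -0.22 with normexp background correction and -0.21 with the authors' deposited values. The labelings of rat 1 differed by 0.00787 and 0.0957, and the SD between the 10 spots of 1 array was 0.104 to 0.342. Arg1 is also a gene of alternatively activated macrophages. Of 8 tested macrophage markers 6 were lower and 2 higher, with a median difference of -0.15 and none past the threshold (limma gave 0, and 0 also without adjustment at p under 0.05), and their mean level per rat was -0.51 to -0.04 in WT and -0.48 to -0.15 in overexpressing rats. The 2 higher markers were Cd163 (0.32; limma, adjusted p = 0.613) and Cd68 (0.18; adjusted p = 0.825), named after their values were seen. Lyz2, the marker with the highest signal, was at 3.72 ± 0.270 (SD, n = 4) and 3.59 ± 0.239 (SD, n = 5). The part of the macrophage markers in the Arg1 and Nos2 values was not tested.

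The other genes of the pathway gave no call either. Of 36 listed genes 29 were tested, 12 higher and 17 lower in overexpressing rats, with a median difference of -0.02 and none past the threshold (0 with limma). At an unadjusted p under 0.05, 1 was higher and 1 was lower, where 9.44% of all genes had such a p. These were Ass1, the enzyme that with Asl rebuilds arginine from citrulline, and Calm3, which encodes calmodulin, the calcium sensor that switches on Nos1 and Nos3.

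Ass1 measured -2.89, -2.57, -2.91 and -2.98 in WT rats. Overexpressing rats gave -2.47, -2.46, -2.51, -2.32 and -2.74. Only WT rat 3 and overexpressing rat 7 overlapped. The difference was 0.34 ± 0.105 (SE; limma, unadjusted p = 0.0105, adjusted p = 0.404). Its partner Asl differed by -0.0057 (adjusted p = 0.980), and the arginine transporter gene Slc7a1 by -0.17 (adjusted p = 0.628), or -0.0974 without WT rat 6. Ass1 was 0.21 higher with normexp background correction. Within the arginine and methylarginine list 2 of 4 tested genes were higher and 2 lower, while Slc7a2, Arg2 and Agxt2 did not meet the filter on dim probes.

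Calm3 measured 4.49, 4.39, 4.49 and 4.67 in WT rats. The values of overexpressing rats were 4.22, 4.30, 4.39, 4.20 and 4.34. WT rat 3 and overexpressing rat 5 shared the value 4.39, and all other overexpressing rats were lower than all WT rats. Calm3 differed by -0.22 ± 0.0678 (SE; limma, unadjusted p = 0.0111, adjusted p = 0.407). Among the 11 tested partners of the synthases 7 were lower and 4 higher. Cav3, the caveolin of muscle that holds synthases at the membrane, was 0.06 higher with the groups fully apart (adjusted p = 0.648), and is named after its values were seen. It was the 1 of 29 tested pathway genes whose groups did not overlap, where 3.52% of all genes had groups apart.

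Downstream of nitric oxide 5 of 7 listed genes were tested, 1 higher and 4 lower. The guanylyl cyclase subunits Gucy1a3, Gucy1b3 and Gucy1a2 differed by -0.06 each (-0.058, -0.060 and -0.065; adjusted p of 0.794, 0.816 and 0.790). Vasp, a substrate of the cGMP kinase, was 0.18 higher (adjusted p = 0.793), dim, with 4 of 6 WT arrays and all 7 others above background. Without overexpressing rat 6 it was 0.0310 higher and without WT rat 6 0.0499. Gucy1a2 ran from -0.101 to -0.0314 with 1 rat left out and was -0.0234 with median scaling. Prkg1 and Pde5a did not meet the filter. Of 5 genes that remove nitric oxide or its protein adducts 3 were higher and 2 lower; Txn1, thioredoxin, was 0.07 higher (adjusted p = 0.675) and Cygb, cytoglobin, 0.04 lower (adjusted p = 0.813), or 0.00078 higher with median scaling, and ran from -0.0803 to -0.0154 with 1 rat left out.

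**Figure D4:**
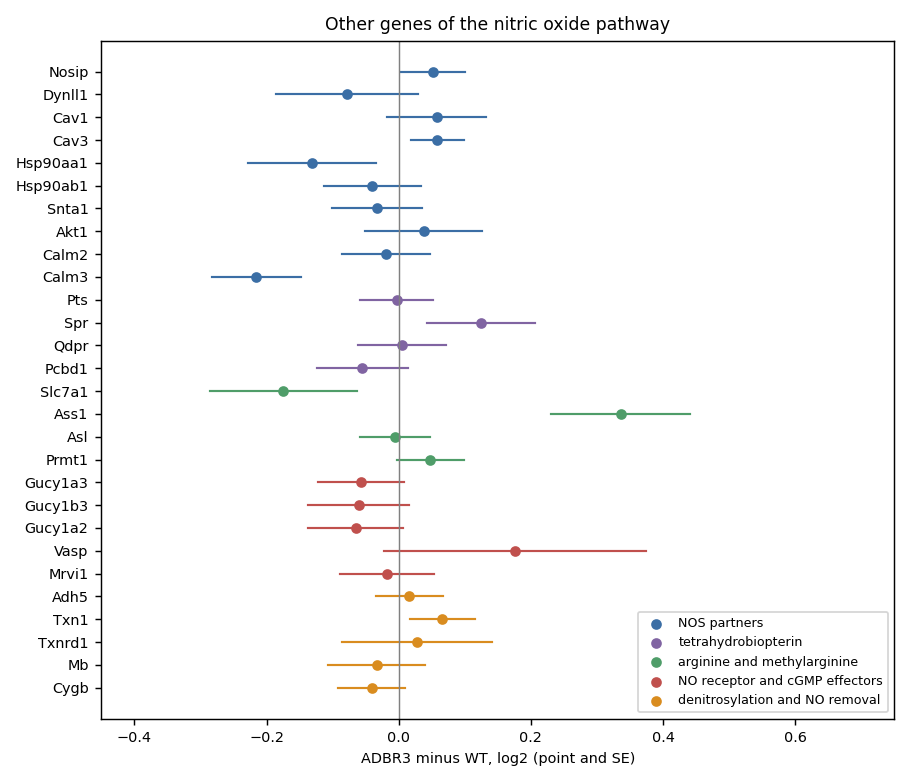
Difference of 28 other genes of the nitric oxide pathway, overexpressing minus WT, in log2 units (point) with its SE from limma (line), coloured by list, 4 WT and 5 overexpressing rats. Ass1 at 0.34 and Calm3 at -0.22 lie farthest from 0 in each direction.

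The tissue label was checked against cell type markers, of which none passed the threshold. Higher and lower markers numbered 1 and 7 for cardiomyocytes, 5 and 0 for fibroblasts, 5 and 0 for smooth muscle and pericytes, and 4 and 2 for nerve. Many of these differences were small, and the signs of small differences depend on the scaling. Cardiomyocyte genes were detected, with myoglobin (Mb), which also binds nitric oxide, at 9.38 ± 0.154 (SD, n = 4) against 9.35 ± 0.0505 (SD, n = 5) in overexpressing rats, and the blood gene Hbb was at 6.90 and 6.93. Dcn of fibroblasts was at 4.60 and 4.61 and Rgs5 of pericytes at 0.79 and 0.82. Of 3 tested lymphocyte markers all were lower, 2 of them at an unadjusted p under 0.05, where 6.29% of all genes were lower at such a p. Cd3d was at -1.40 and -1.75 (adjusted p = 0.510), and Cd8a, named after its values were seen, was dim and above background on 4 of 6 WT arrays and 3 of 7 others. The 75th percentile of processed signal ran from 760.4 to 908.7 over the arrays, and the share of spots that cleared background from 55.2% to 67.8%, lowest on WT hearts 2 and 6, with 0 saturated spots.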

How the data were processed

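The authors deposited scanner files of single-dye Agilent arrays (design 028279), whose spot intensity was made with Agilent Feature Extraction 10.7.1.1 (background-subtracted and detrended), per the file headers, along with 0 or 1 flags per spot. The series table that the authors deposited is on a natural log scale: set against ln of each array's median signals, its columns had slopes between 0.986 and 1.06. Column medians lie between 5.70 and 5.73, how arrays were scaled stays unknown, and the table served as an alternative.

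Processed signals were scaled as log2 minus each array's 75th percentile over 58717 spots. Spots of a probe were averaged without outlier spots. A probe counted as well above background where at least 0.5 of its spots were, and was kept when this held on all arrays of at least 4 of 9 rats (17587 probes). The brightest kept probe stood for a gene (15367 genes). Groups were fitted with limma 3.58.1 in R 4.3.3, Benjamini-Hochberg adjusted over all genes. The fit was run on simulated data with shifts larger than any member difference, which does not show its power at the sizes seen here. Single probes got an exact two-sided permutation test. Arrays limit precision by their number, 4 against 5 rats, and p-values measure the spread between them. All members matched symbols of RefSeq's GRCr8 table, whose coordinates were not used. Slides and scan days come from file headers.

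The members and lists were chosen with earlier results of these data known. The named genes were all members, the 2 pathway genes per list with the smallest p, the brightest marker per list and the 3 symbols most like the member that varied most. Of these, 1 pathway gene and 1 marker are not reported here. Asl, Cav3, Gucy1a3, Gucy1b3, Cd8a, Cd163 and Cd68 were added after their values were seen. Alternatives were other scaling, background correction, filters, blocks, variance models and left-out rats. Python 3.11.15, pandas 2.3.3, numpy 2.4.6 and matplotlib 3.10.9 were also used.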

Additional observations from a re-analysis of the deposited data

Results flagged for a closer look

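In 1 of the member probes a rat stood apart from its group by Dixon's criterion. Nos1ap in overexpressing rat 3 was at -6.16, while the other overexpressing rats lay between -5.44 and -5.21. No rat was well above background for this probe, so the value is a reading near background. Dixon's criterion marks about 1 in 20 groups by chance, and 12 probes were examined in both groups.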

How the results depend on the processing

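Under 22 alternative settings no member and no gene of the pathway lists passed the threshold (0 with limma in each setting, 3 members at an unadjusted p under 0.05 in the fit reported). Of the 8 tested members, Nos2, Nos3, Nostrin, Gch1, Gchfr and Arg1 kept their sign in each setting that gave a value. With each rat left out in turn Ddah1 ranged from -0.0657 to 0.107 and Ddah2 from -0.132 to 0.182, and Cygb measured 0.00078 with median scaling. Nos2 and Nostrin gave no value when a probe had to be well above background in all rats. An unadjusted p under 0.05 was kept by Arg1 in 15 of 21 settings, by Nostrin in 11 of 20 and by Gchfr in 10 of 21. Nos2 and Gch1, without such a p in the fit reported, had it in 3 of 20 and 4 of 21. Over all genes the count past the threshold was 2 with normexp background correction, 2 with the authors' deposited values, 8 with a trended and robust variance, and 0 to 13 with a rat left out (13 without overexpressing rat 3). Median scaling turned the split of genes at an unadjusted p under 0.05 from 484 higher and 967 lower to 951 and 568. Heart numbers are not shown to pair rats: deviations of rats 1, 3 and 6 correlated across genes with those of the same number at 0.106, 0.0347 and 0.124, each WT rat with its own number best. On these rats 0 genes passed with the number as a replicate block and 0 without it. Nostrin then differed by -0.76 (unadjusted p = 0.0562 with the block, 0.0387 without).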
